A study of Caenorhabditis elegans with 3 samples.

Results

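The X chromosome carried 324 of the 3295 peaks in the authors' optimal list of DPL-1 binding sites once peaks at tRNA genes were set aside. A peak was counted when it lay on X and its summit, the base of highest signal, was more than 100 bp from every tRNA gene of the WBcel235 assembly (ce11). X held 447 peaks in all, of which 123 (27.5%, 95% interval 23.4 to 31.9) were at tRNA genes, against 150 of 2823 on the autosomes (5.31%). X also carries 276 of the 612 nuclear tRNA genes (45.1%). The 2673 autosomal peaks chosen by the same rule were the comparison, and the 25 mitochondrial peaks were not used. Intervals are exact 95% binomial intervals throughout and cover the counting of peaks or genes only.

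The protein was mapped by chromatin immunoprecipitation and sequencing (ChIP-seq) in 3 biological replicates of 1 group, with an anti-GFP antibody. The animals were young adult hermaphrodites of the nematode Caenorhabditis elegans, strain YL507, a transgenic line that stably expresses DPL-1 with a GFP-FLAG tag at its C terminus, named by the labels as an insertion targeting dpl-1; their age was given as unknown. The labels name a possible control experiment, but no untagged or input sample was analysed here, so no background was at hand for these peaks, and the read depth of the replicates is unknown. Chromatin came from whole animals, germline and soma together, so that binding in few cells and weak binding in many cells cannot be told apart, and no expression values were at hand to check the tissues present.

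DPL-1 is the worm DP protein, which pairs with E2F proteins to bind DNA and is also part of the DREAM complex, a repressor of cell cycle genes. Hermaphrodites carry a pair of X chromosomes, and in their somatic cells the dosage compensation complex binds X at recruitment sites, spreads along it and lowers its transcription. In the germline X is largely silent, and genes needed there, as well as many genes for basic cell functions, are known to be rare on X.

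Sequences from X are shown in 3 sets, each the 101 bases around a summit, read on the plus strand. The first set comes from the 4 strongest promoter peaks (summit within 500 bp of the 5' end of a protein-coding gene) with an E2F-like match, in capitals. The letters searched for were TTCCCGC and likewise the form TTCGCGC, also the form TTGCCGC and lastly the form TTGGCGC, on either strand.
C05G5.2 (chrX:14747126-14747226): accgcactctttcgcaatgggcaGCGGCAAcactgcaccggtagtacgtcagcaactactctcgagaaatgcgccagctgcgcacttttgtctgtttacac
klp-13 (chrX:5984731-5984831): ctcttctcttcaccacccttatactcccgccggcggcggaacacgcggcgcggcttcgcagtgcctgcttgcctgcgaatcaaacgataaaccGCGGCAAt
F16B12.6 (chrX:14102139-14102239): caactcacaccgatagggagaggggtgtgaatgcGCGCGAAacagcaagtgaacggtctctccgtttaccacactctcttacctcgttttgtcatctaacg
sdha-1 (chrX:8546184-8546284): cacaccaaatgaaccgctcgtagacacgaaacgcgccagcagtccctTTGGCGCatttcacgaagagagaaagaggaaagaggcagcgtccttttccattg

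The next pair are the strongest promoter peaks on X, neither of which held an E2F-like match within 50 bp of the summit, so nothing is in capitals.
puf-9 (chrX:5841230-5841330): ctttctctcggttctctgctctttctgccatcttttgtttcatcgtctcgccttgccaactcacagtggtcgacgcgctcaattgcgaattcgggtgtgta
serp-1.1 (chrX:15841233-15841333): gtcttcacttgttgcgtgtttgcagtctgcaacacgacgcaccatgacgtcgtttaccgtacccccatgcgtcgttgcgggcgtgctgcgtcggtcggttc

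The last set comes from distal peaks (summit more than 500 bp from every protein-coding 5' end), named by the nearest gene. The first pair are the strongest distal peaks on X, and the other 2 were chosen after their values were seen. Capitals mark GCGCAGGG or its reverse complement, the core of a longer motif known from recruitment sites of the dosage compensation complex.
cest-16 (chrX:6296506-6296606): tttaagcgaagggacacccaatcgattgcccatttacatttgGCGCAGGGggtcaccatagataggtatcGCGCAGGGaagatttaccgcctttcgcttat
W02H3.3 (chrX:11094140-11094240): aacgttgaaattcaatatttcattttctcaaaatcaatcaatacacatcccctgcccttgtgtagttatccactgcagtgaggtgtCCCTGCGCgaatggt
F20B6.9 (chrX:4209234-4209334): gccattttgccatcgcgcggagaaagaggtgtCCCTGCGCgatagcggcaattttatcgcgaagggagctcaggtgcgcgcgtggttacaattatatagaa
gtr-1 (chrX:806631-806731): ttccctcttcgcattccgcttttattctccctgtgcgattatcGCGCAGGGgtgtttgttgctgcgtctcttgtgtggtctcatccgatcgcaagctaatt

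Peaks on X lay at promoters less often than autosomal peaks. Of the 324, 135 were promoter peaks and 189 were distal, a promoter share of 41.7% (36.2 to 47.2), against 1633 of 2673 on the autosomes (61.1%, 59.2 to 62.95). Among single autosomes the share ran from 59.5% on IV to 63.7% on I, so X stood outside the autosomal range. The same split was seen in each replicate over its 3295 strongest peaks, here called its top list. The promoter share on X was 32.4% in replicate 1, 44.5% in replicate 2 and 36.8% in replicate 3, against 52.7%, 60.6% and 54.9% on the autosomes. The difference, X minus autosomes, was -20.3, -16.04 and -18.1 percentage points (mean -18.1 ± 2.12 SD, n = 3), lower on X in 3 of 3 replicates. An exact sign-flip permutation test over replicates gave p = 0.25, two-sided, the smallest value that 3 replicates allow.

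**Figure D1:**
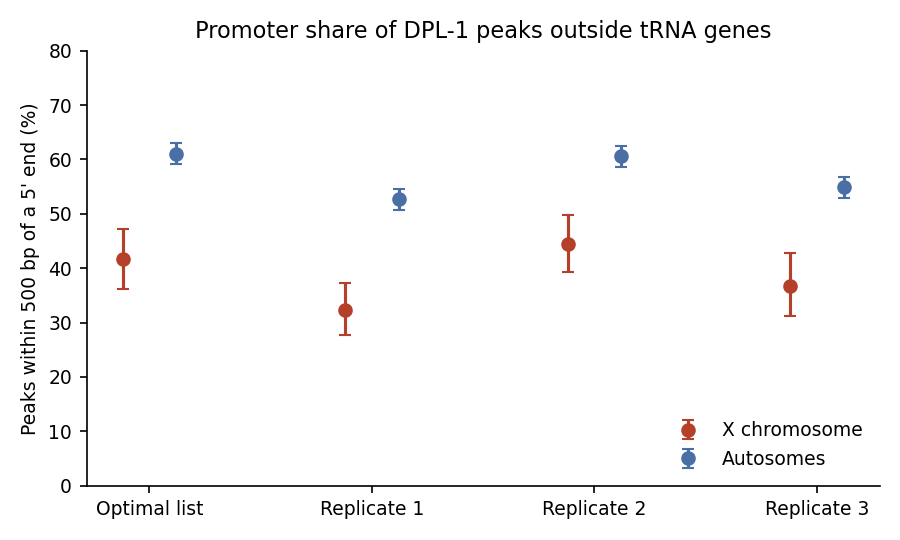
Percentage of peaks outside tRNA genes whose summit lies no more than 500 bp from a protein-coding 5' end, on X (red) and the autosomes (blue), in the optimal list and in the top list of each replicate; bars are exact 95% binomial intervals. The X points sit between 32.4% and 44.5%, below the autosomal points at 52.7% to 61.1%, and no interval on X reaches that of the autosomes in the same list.

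X therefore took different shares of each class. It held 7.64% (6.44 to 8.97) of promoter peaks and 15.4% (13.4 to 17.5) of distal peaks, with 13.7% of protein-coding 5' ends and 17.7% of nuclear sequence. Its share of all peaks outside tRNA genes was 10.8% (9.72 to 11.98), and 12.5%, 11.9% and 9.35% in replicates 1, 2 and 3 (mean 11.2% ± 1.66 SD, n = 3). With peaks at tRNA genes kept, X held 13.7% of nuclear peaks, the same as its share of 5' ends. Per megabase, X had 7.62 promoter peaks, below every autosome (12.3 on V to 27.3 on III). Its 10.7 distal peaks per megabase lay within the autosomal range of 7.69 on V to 18.2 on III. Genes are also sparser on X, at 154 protein-coding genes per megabase against 188 to 239. Counted per 1000 protein-coding genes, X had 119 peaks, more than chromosome V with 83.7 and fewer than the other 4 autosomes.

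Promoter peaks on X sat slightly farther upstream than those on the autosomes. The median distance from summit to 5' end was 197 bp on X and 162 bp on the autosomes, and 92.6% and 89.2% of the summits lay upstream. On X, 107 of the 135 promoter summits (79.3%) lay in no annotated gene, 15 in an exon of a noncoding gene and 8 in a 5' UTR. One promoter peak served at least 2 genes in 16 of 135 cases on X (11.9%) and in 524 of 1633 on the autosomes (32.1%). How often 5' ends lie that close together on X and on the autosomes, with or without a peak, was not counted. In worms many annotated 5' ends lie at trans-splice sites downstream of the true transcription start, so the distances are to the annotation.

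**Figure D2:**
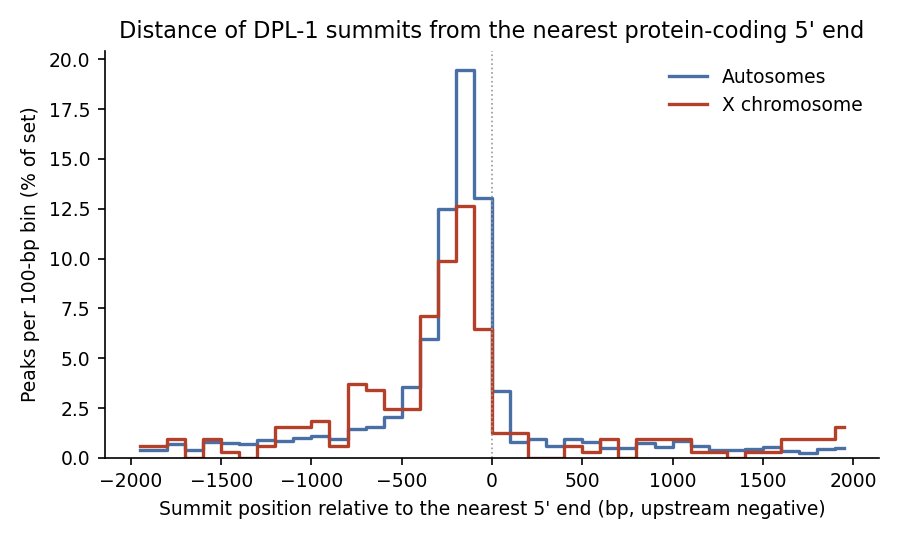
Position of each summit relative to the nearest protein-coding 5' end, in base pairs (upstream negative), as the percentage of peaks per 100-bp bin, for X (red) and the autosomes (blue). Both sets pile up just upstream of the 5' end, the X curve is lower there, and 15.1% of X peaks against 10.1% of autosomal peaks lie 500 to 1000 bp away.

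Distal peaks on X were mostly intergenic. Of 189, 119 (62.96%, 55.7 to 69.9) lay in no annotated gene, 44 (23.3%) in an intron of a protein-coding gene and 21 (11.1%) in an exon of a noncoding gene, against 50.9%, 31.5% and 8.27% of the 1040 autosomal distal peaks. Their median distance to a 5' end was 2088 bp, with a maximum of 9167 bp, against a median of 1768 bp on the autosomes (1419 bp on I to 2240 bp on IV). Other small RNA genes added little: 3 of the 189 lay within 100 bp of a snoRNA gene, against 61 of the 1040. How much of X and of the autosomes is intergenic, intronic or exonic was not counted, nor were their snoRNA genes. The shares by location therefore have no background beside them, and genes are sparser on X. The tRNA rule left few borderline cases. The kept peaks nearest to a tRNA gene were those near aexr-3 (111 bp, signal 55.4), xol-1 (269 bp, signal 234) and M163.11 (457 bp, signal 48.3), and the peaks set aside that came closest to the 100 bp limit were those near unc-115 (58 bp, signal 60.4), D1079.1 (51 bp, signal 66.9) and mec-7 (50 bp, signal 52.98).

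Binding was spread along the whole of X rather than gathered in its middle. In 10 equal segments of the chromosome from left to right, the peaks numbered 31, 33, 34, 26, 38, 21, 28, 35, 48 and 30. The ninth segment was the richest, with 14.8% of peaks and 10.4% of 5' ends, and the sixth the poorest, with 6.48% of peaks and 9.67% of 5' ends. The seventh segment held the most 5' ends (327) and the fewest promoter peaks (7), 21.4 per 1000 ends, against 77.7 in the ninth. The central 50% of X held 144 of the 324 peaks (44.4%, 38.95 to 50.04) and 52.9% of its 5' ends, a difference of -8.50 percentage points. The replicates gave -6.73, -6.73 and -4.38 (mean -5.95 ± 1.36 SD, n = 3, exact sign-flip permutation p = 0.25). In peaks shared by the top lists of the other replicates it was -15.3 without replicate 2 and -14.1 without replicate 3, and in the central 33.3% it was -5.49. On the autosomes the central 50% held 60.2% of peaks and 55.7% of 5' ends, the opposite order. Promoter and distal peaks on X gave nearly the same central share, 45.2% and 43.9%. With peaks at tRNA genes left out, neighbouring summits were a median of 32260 bp apart, against 14730 bp on the autosomes. The widest stretch with no peak outside tRNA genes was 356251 bp, from chrX:5372849-5729100.

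**Figure D3:**
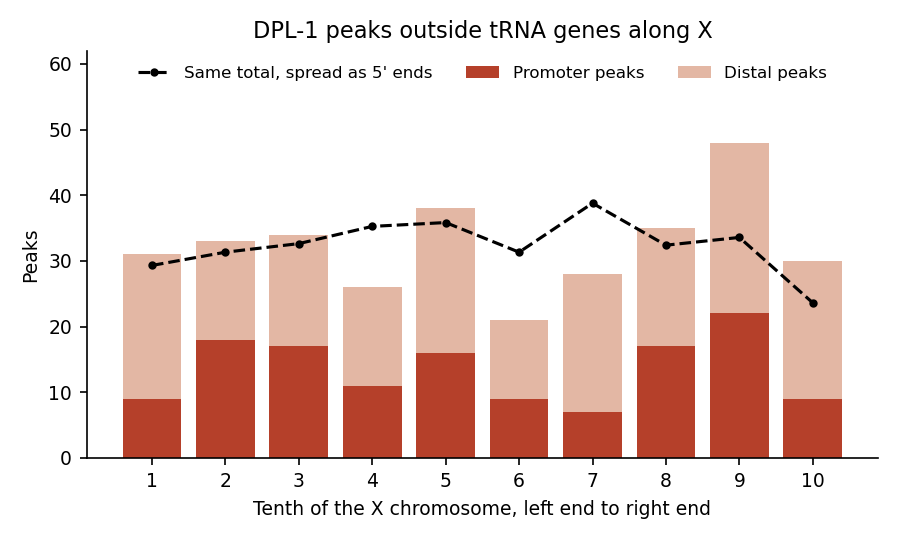
Number of promoter (dark) and distal (light) peaks in each of 10 equal segments of X, left end to right end, with the 324 peaks as they would fall if spread like protein-coding 5' ends (dashed). The ninth segment holds 48 peaks and the sixth 21, and segments 4, 6 and 7 fall below the dashed line.

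Peaks on X were weaker than autosomal peaks, and none was among the strongest. Signal, the authors' measure of peak strength on a scale that is not stated, had a median of 70.6 on X and 84.4 on the autosomes, a ratio of 0.837. Within the replicates' own lists the medians were 17.6 against 19.9 in replicate 1, 45.1 against 52.8 in replicate 2 and 18.5 against 19.8 in replicate 3. Those ratios were 0.883, 0.854 and 0.937 (mean 0.891 ± 0.0421 SD, n = 3), below 1 in 3 of 3 replicates (exact sign-flip permutation p = 0.25 on the log scale). The gap lay mainly at promoters, with a median signal of 82.4 on X and 99.5 on the autosomes. Distal peaks had medians of 65.4 and 70.2, and the lowest autosomal distal median, 66.3 on IV, was close to that of X. In the replicates' own lists the distal medians were 16.9 against 17.5 and 41.9 against 43.65 in replicates 1 and 2. In replicate 3 the distal median was higher on X, 17.6 against 17.3. No X peak was among the strongest 100 of the optimal list, 5 were among the strongest 200, and 66 among the strongest 1000. The strongest X peak had a signal of 389, against 847 to 3595 for the strongest peak of each autosome.

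Fewer X peaks ranked high in every replicate. Over both chromosome sets, 40.8% of the 2997 peaks had a summit within 100 bp in the top list of all 3 replicates. On X the number was 97 of 324 (29.9%, 25 to 35.3), and on the autosomes 1127 of 2673 (42.2%, 40.3 to 44.1), with 40.2% on I to 45.1% on III for single autosomes. The share was lower on X for promoter peaks (37.04%, 28.9 to 45.8, against 49.9%). For distal peaks it was 24.9% against 30%, and the X interval of 18.9 to 31.7 includes the autosomal share. Replicates 1 and 3 made the difference: 53.1% of X peaks were in the top list of replicate 1 and 50.3% in that of replicate 3, against 60.98% and 64.01% of autosomal peaks. In replicate 2 the values were 83.6% and 83.7%, a difference of only -0.0468 percentage points. The 3 replicates averaged -7.21 ± 6.85 SD. Among distal peaks only replicate 3 was lower on X, with 45.5% against 55.6%. Replicates 1 and 2 had 52.9% against 51.35% and 79.4% against 77.7%. Promoter peaks were lower on X in replicate 1 (53.3% against 67.1%) and replicate 3 (57.04% against 69.4%). In replicate 2 they were not (89.6% against 87.5%). Of X peaks, 83 (25.6%) were in the top list of replicate 2 alone, against 15.8% of autosomal peaks. The share in no top list was much the same, with 15 X peaks (4.63%) and 115 autosomal peaks (4.30%). Ranks of X promoter peaks ran together between replicates (Spearman rho 0.648 to 0.705 over 94 to 117 peaks that 2 relaxed lists shared) more than those of X distal peaks (0.350 to 0.508), the same order as on the autosomes (0.682 to 0.729 for promoter and 0.435 to 0.485 for distal peaks). These correlations are across peaks that share libraries, and are given as a description.

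**Figure D4:**
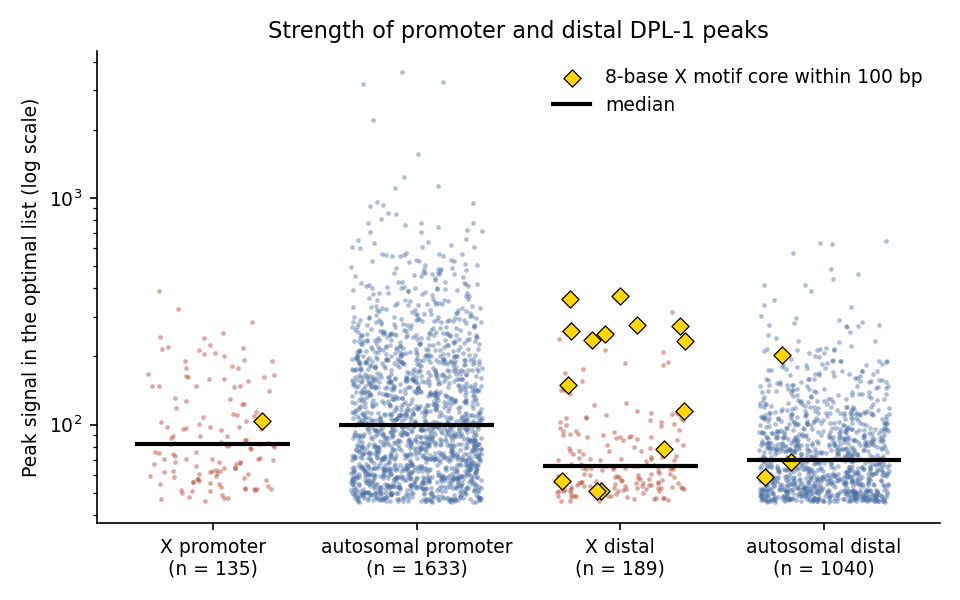
Signal of every peak outside tRNA genes in the optimal list (log axis), by chromosome set and class, with medians as black lines; diamonds mark peaks with the 8-base core GCGCAGGG within 100 bp of the summit. The medians are 82.4, 99.5, 65.4 and 70.2 from left to right, and diamonds crowd the top of the X distal column.

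Few genes on X had DPL-1 at their 5' end. A peak lay within 500 bp of the 5' end of 11.5% of the 19973 nuclear protein-coding genes, but of only 151 of 2731 genes on X (5.53%, 4.70 to 6.45), against 2138 of 17242 on the autosomes (12.4%). Chromosome V came close to X, with 6.77%, and III was highest with 19.2%. The replicates' top lists served 132, 176 and 110 X genes (4.83%, 6.45% and 4.03%), and the difference from the autosomes was -5.67, -5.74 and -6.93 percentage points (mean -6.11 ± 0.707 SD, n = 3, exact sign-flip permutation p = 0.25). Counting only the nearest gene of each peak gave -4.41.

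The strongest promoter peak on X lay 312 bp upstream of puf-9, which encodes an RNA-binding protein of the Pumilio family (chrX:5841136-5841446, signal 389), inside exons of the overlapping noncoding genes W06B11.7 and W06B11.9. It ranked 119 in the optimal list and 120, 120 and 144 in replicates 1, 2 and 3, so its place hardly moved. The peak of serp-1.1 followed (chrX:15841156-15841402, signal 326), with ranks of 151, 163 and 258. C05G5.2 came next (chrX:14747033-14747287, signal 283), and its rank was 969 in replicate 1 against 136 and 269 in the others, so it was strong in replicates 2 and 3 and middling in replicate 1.

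The peak of hsp-3, a BiP-type chaperone of the endoplasmic reticulum, lay 72 bp upstream of the gene (chrX:6092091-6092304, signal 224, ranks 433, 403 and 333). A single peak lay between trap-2, a subunit of the translocon-associated protein complex, and ile-2 (chrX:768162-768350, signal 201), with ranks of 461, 346 and 914. The peak of mans-3, named as an alpha-mannosidase, had a signal of 253 (chrX:5165125-5165347) and ranks of 403, 221 and 391. All 3 were in the top list of every replicate.

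The other leading promoters served genes of varied roles. The gene of a ribosomal protein of the large subunit, rpl-11.2, had a peak of signal 243 (chrX:2242883-2243099) that ranked 398, 314 and 300. The kinesin gene klp-13 had one of signal 242 (chrX:5984668-5984875), ranked 528, 209 and 720, and ucr-2.2, a core subunit of respiratory complex III, one of signal 218 (chrX:15173585-15173789), ranked 321, 517 and 290. The endocytosis adaptor gene epn-1 (epsin) had a peak of signal 207, and nipi-3, a Tribbles-type pseudokinase of innate immunity, one of signal 205. The remaining peaks of the strongest 15 lay at F17E5.2 (signal 220), pkhm-2 (215), F16B12.6 (214) and ZC506.1 (193). All 15 were in the top list of all 3 replicates, and the best reproduced by worst rank were those of puf-9, serp-1.1, rpl-11.2, mans-3 and hsp-3. At the other end, T14G8.3 (signal 46.1) and fubl-3 (signal 46.8) had the weakest promoter peaks on X, and the fubl-3 peak was in no replicate's top list.

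Cell division, ribosomal protein and proteasome genes, of which most had a peak on the autosomes, were scarce on X. Of 169 genes of the cell division list, 3 were on X, and 2 of these had a peak, against 95 of 166 on the autosomes (57.2%). They were coh-1, a cohesin subunit (signal 67.2), and cdk-4, a cyclin-dependent kinase (signal 56.0). Both peaks were weak and missed the top list of 1 replicate each. Of 2 ribosomal protein genes on X, rpl-11.2 had a peak, against 67 of 76 on the autosomes (88.2%), and no proteasome gene of the list was on X. With so few X genes the intervals are wide (9.43 to 99.2% for cell division), and no difference between X and the autosomes was detectable within these lists.

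Genes of the respiratory chain were the list best served on X. A peak lay at 5 of its 6 X genes (83.3%, 35.9 to 99.6) and at 33 of 62 autosomal genes (53.2%, 40.1 to 66.0). After ucr-2.2 came sdha-1, the flavoprotein subunit of succinate dehydrogenase (signal 178), the ATP synthase genes asb-2 (159) and asg-2 (124), and ucr-2.1 (71.1). The peak of asg-2 also lay at glr-6, a glutamate receptor gene, and it ranked 17136 in replicate 1 against 830 and 1094 in the others. Among translation factors, eef-1A.2, an elongation factor gene, had a peak of signal 168 and ife-2, an eIF4E cap-binding protein gene, one of signal 148, 2 of 3 X genes against 32 of 68. In the list of small GTPases and vesicle traffic, 4 of 15 X genes had a peak (26.7%), led by sec-3 of the exocyst (148.8), against 30 of 93 (32.3%). Of 3 splicing genes on X, snrp-40.1 had a peak (87.03), and in the germline list puf-9 was the 1 of 6.

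Among all genes 5.53% on X and 12.4% on the autosomes had a peak, and the remaining lists are given against those shares. Channels and receptors, neuropeptides, homeobox and related factors and collagens each had 17.6% to 32.6% of their genes on X, above the 13.7% of all genes. They were below both shares on X, but their intervals all included 5.53% (upper limits 6.17%, 15.3%, 14.5% and 11.2%). Of the other lists above 13.7%, yolk and intestine (26.7% on X) was also below both shares. Muscle (24.2%) and small GTPases and vesicle traffic (13.9%) were not, with a peak at 6.67% and 26.7% of their X genes. Channels and transmitter receptors had a peak at 1 of 88 X genes (1.14%) and at 3 of 182 autosomal ones (1.65%), the X gene being glr-6 with the shared peak. Neuropeptides and insulins had 1 of 34, nlp-76 (signal 51.8), and 1 of 106. Homeobox, bHLH, forkhead and GATA factors had 1 of 36 on X and 4 of 94 on the autosomes. The X gene was ceh-39, a homeodomain gene that helps to count X chromosomes in early embryos (chrX:1856206-1856509, signal 111), in the top list of all 3 replicates. Muscle genes had 1 of 15 on X (6.67%), act-4 (signal 51.2), against 4 of 47 (8.51%), and histones 1 of 5, the linker histone gene his-24 (signal 95.9), against 4 of 78. Nuclear hormone receptors had 3 of 23 on X (13.0%, 2.78 to 33.6), led by nhr-1 (97.9), and 4 of 246 on the autosomes (1.63%, 0.445 to 4.11). No ubiquitin ligase or conjugating enzyme gene of 7 on X had a peak, although 17 of 50 did on the autosomes (34%, 21.2 to 48.8), and the X interval of 0 to 41.0% includes that share. No collagen gene of 31, chemoreceptor gene of 34, yolk or intestine gene of 24, detoxification gene of 14 or lectin gene of 3 on X had a peak either, against 4 of 145, 5 of 1331, 0 of 66, 4 of 171 and 1 of 237 on the autosomes. No sperm gene of the list was on X. By the exact intervals, these counts of 0 on X allow shares of up to 11.2%, 10.3%, 14.25% and 23.2% for collagens, chemoreceptors, yolk and detoxification.

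**Figure D5:**
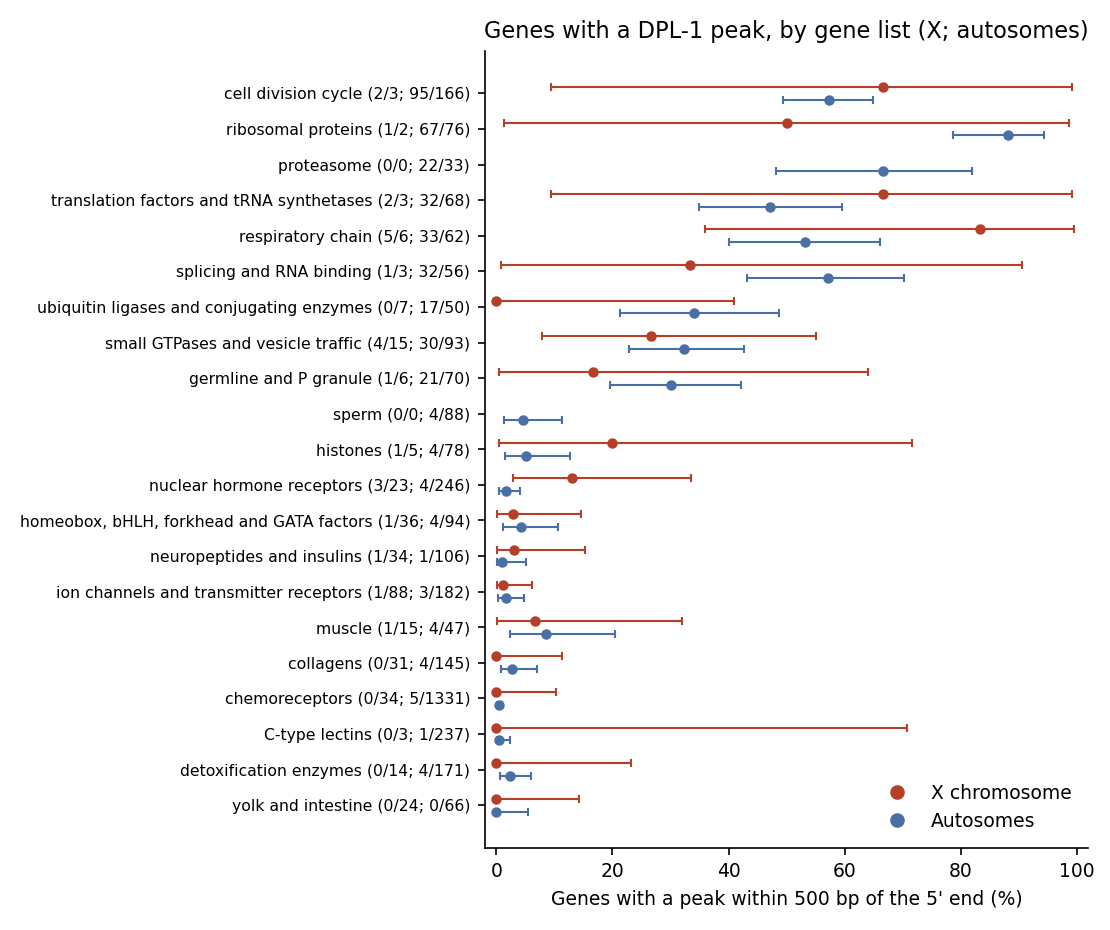
Percentage of genes in each of 21 lists with a peak within 500 bp of the 5' end, on X (red) and the autosomes (blue); counts in brackets are genes with a peak over genes in the list, X first, and bars are exact 95% binomial intervals. Cell division, ribosomal and proteasome genes were well served on the autosomes but number 3, 2 and 0 on X, and 5 of 6 respiratory chain genes on X had a peak.

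The bases at X summits differed in composition and motif content. Mean GC content of the 101 bases was 48.6% on X and 45.4% to 46.2% on the autosomes. The difference lay at promoters, with a median of 51.5% on X and 45.5% on the autosomes. At distal summits the median was 46.5% on both. An E2F-like match lay within 50 bp of 43 X summits (13.3%, 9.77 to 17.5), against 15.6% on the autosomes and 2.69% of all windows of that length on X (3.40% on the autosomes). The replicates gave differences of -5.44, -1.29 and -4.26 percentage points (mean -3.66 ± 2.14 SD, n = 3, exact sign-flip permutation p = 0.25). Promoters and distal peaks went opposite ways: 11.1% of X promoter summits (6.35 to 17.7) against 19.1% on the autosomes (17.2 to 21.1), and 14.8% of X distal summits (10.1 to 20.7) against 10% (8.24 to 11.99). At the X distal peaks near cest-16 and W02H3.3 the E2F-like match shared bases with the core GCGCAGGG. Near F20B6.9 (signal 271) the match lay apart from the core. The core peaks near nspc-17, gtr-1, F22H10.2, Y41G9A.17 and xol-1 held no E2F-like match within 50 bp of the summit. How many of the remaining X distal matches shared bases with the core was not counted. Of the strongest 15 promoter peaks on X, only those of C05G5.2, klp-13 and F16B12.6 held a match, as in the sequences above. TTCGAA or TTTGAA is the element that LIN-54 of the DREAM complex recognises. It lay at 14.2% of X summits and 27.7% of autosomal summits, both below the 32.8% and 33.6% of all windows. Windows centred on protein-coding 5' ends held it in 25.9% of cases on X and 31.0% on the autosomes. By class it lay at 11.9% of X promoter and 15.9% of X distal summits. On the autosomes it lay at 32.8% of promoter summits, close to both backgrounds, and at 19.7% of distal summits. The same E2F-like letters read backwards, which have the same base composition, lay at 5.25% of X summits and 9.13% of autosomal summits, a difference of -3.88 points that is no smaller than the -2.29 of the E2F-like letters. Taken within 100 bp of the summit the E2F-like difference was -4.33, in the stronger 50% of peaks -4.32, and with peaks at tRNA genes kept -3.72. Presence of letters does not show which protein bound there.

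The strongest distal peaks on X carried the core GCGCAGGG. It was found within 100 bp of 14 of 189 X distal summits (7.41%, 4.11 to 12.1), 1 of 135 X promoter summits, 3 of 1040 autosomal distal summits (0.288%, 0.0595 to 0.841) and 0 of 1633 autosomal promoter summits. Of all windows of 201 bp, 0.0851% on X and 0.0553% on the autosomes held it. The search was chosen after the data had been seen. Among X distal peaks in the top lists of both other replicates, the share was 15.9% without replicate 1, 17.2% without replicate 2 and 11.7% without replicate 3. These were still peaks of the optimal list, which drew on all 3 replicates. In the replicates' own top lists, 13, 12 and 15 X distal peaks held the core (5.02%, 6.06% and 8.47%), against 0.236%, 0.288% and 0.163% of autosomal distal peaks. It lay at 7 of the 10 strongest X distal peaks, 9 of the strongest 20, 10 of the strongest 30 and 14 of all 189. The 14 had a median signal of 235.5, against 64.9 for the 175 without it. They were in the top list of all 3 replicates in 9 of 14 cases, against 38 of 175. With up to 1 mismatch, all 10 of the strongest held it, although 2.60% of all X windows then did too. That looser match was not particular to X distal summits, of which 16.9% (11.9 to 23.05) held it. It lay at 14.1% of X promoter, 9.71% of autosomal distal and 10.2% of autosomal promoter summits.

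The leading peak of that group lay in an intron of mom-1, a Wnt pathway gene, 3386 bp from the 5' end of cest-16 (chrX:6296341-6296789, signal 371). Its ranks were 71, 216 and 142, and it held the core 2 times, centred 5 bases before and 23 bases after the summit. The next lay in no annotated gene, 3996 bp from W02H3.3 (chrX:11093920-11094369, signal 357), and ranked 104, 137 and 288. Those near nspc-17 (signal 274, ranks 305, 258 and 174), F20B6.9 (271, ranks 208, 271 and 274) and gtr-1 (259, ranks of 149, 424 and 220) also held it. So did those near F22H10.2 (252) and Y41G9A.17 (237). The other 3 of the strongest 10, near K02D3.1 (313), T27A8.7 (288) and ZK899.6 (238), did not hold the exact letters. All 10 were in the top list of every replicate, with ranks no worse than 546.

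The eleventh distal peak lay 4897 bp upstream of xol-1, the gene that sets sexual fate from the number of X chromosomes (chrX:8036286-8036542, signal 234). It held the core on both strands and ranked 110, 609 and 663. At its distance of 269 bp from a tRNA gene it is also one of the few borderline members named above. A promoter peak lay 279 bp upstream of sdc-1, which encodes a zinc finger protein needed for dosage compensation (chrX:16275332-16275635, signal 64.1). It was in the top list of replicate 2 alone, with no summit within 100 bp in the lists of replicates 1 and 3. A distal peak lay 534 bp upstream of sdc-2, another gene needed for dosage compensation (chrX:11522021-11522324, signal 70.25), and was in the top list of all 3 replicates, with ranks of 1094, 2809 and 1948. These 3 genes were singled out after their values were seen, and whether these peaks depend on DPL-1 itself was not tested. Genes of dosage compensation and X counting were not counted as a list, so those without a peak are not shown.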

How the data were processed

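ChIP-seq peak lists of 3 biological replicates of 1 group were used. The deposited lists give a signal for each peak, the authors' measure of strength, on a scale that differs between lists, so it was used only within a list. Per the text deposited with the samples, each replicate has a relaxed list (28383 to 30000 peaks) made for irreproducible discovery rate (IDR) filtering, which retains peaks of like rank, and the optimal list of 3295 peaks passed it. Aligner and peak caller: not given in the sources used here. Coordinates are ce11 and 1-based. Summits came from the deposited offsets.

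Genes and tRNA genes were from Ensembl release 115, and bases from the RefSeq genome of the same assembly. Of 19973 nuclear protein-coding genes, 17 have no symbol and kept their identifier. A replicate's top list was its 3295 strongest peaks, and a peak was in it when a summit lay within 100 bp. Differences over replicates were tested by exact sign-flip permutation. Gene lists (21) were matched by symbol. Members, lists and tests were chosen with earlier results of these data known. Named genes were those at the 15 strongest promoter peaks, nearest the 10 strongest distal peaks, at the 5 best-reproduced promoter peaks, the strongest in each list and at the 2 weakest promoter peaks; further genes, among them the other members named with a list's count, were chosen after their values were seen. Python 3.11.15, pandas 2.3.3, numpy 2.4.6, scipy 1.17.1 and matplotlib 3.10.9 were used, and the functions were tested on simulated data. Alternatives varied the tRNA distance, promoter window, 5' ends, shared distance, motif window and peak strength, and left out each replicate.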

Additional observations from a re-analysis of the deposited data

How the results depend on the processing

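No alternative that was run turned the sign of a difference or took a signal ratio past 1. Of the 58, 28 moved their result by no more than the spread over replicates. Splits by class outside these alternatives went the other way in places. Among distal peaks of the optimal list the E2F-like match was more frequent on X (14.8% against 10%). In the replicates' own top lists this held in replicate 2 only. In replicate 3 the median signal of distal peaks was higher on X (17.6 against 17.3). Leaving out each replicate meant keeping the optimal-list peaks that were in the top list of both others. The optimal list drew on all 3 replicates, so the replicate left out still helped to choose these peaks. The X share was then 8.29% to 9.09%, and promoter share differences were -24.3 to -17.3. Central share differences were -15.3 to -8.98, gene share differences -5.19 to -4.80 points and signal ratios 0.807 to 0.948. Keeping peaks at tRNA genes gave an X share of 13.7%, equal to that of 5' ends, a promoter difference of -26.0, a central difference of -6.19 and a signal ratio of 0.900. In the stronger 50% of peaks these were 8.50%, -21.7, -6.92 and 0.883, and the gene difference was -5.22. Promoter windows of 250 and 1000 bp gave promoter differences of -17.1 and -14.4 and gene differences of -4.79 and -7.996, and counting only the nearest gene gave -4.41. A central window of 33.3% of the length gave a central difference of -5.49, distal peaks alone a signal ratio of 0.933, and promoter peaks alone an E2F-like motif difference of -7.99 points. For the core at X distal summits, alternatives chosen after seeing the data gave 11.7% to 17.2% without 1 replicate, 16.9% with up to 1 mismatch and 6.88% within 50 bp. With up to 1 mismatch, X promoter summits gave 14.1% and autosomal distal summits 9.71%. The causes were not tested. The unknown depth, the control experiment that was not analysed here, 3 replicates whose smallest p is 0.25 and lists of few X genes limit these results.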
